A study of Drosophila melanogaster with 20 samples.

Results

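Glutathione S-transferases (GSTs) join the tripeptide glutathione to electrophilic molecules, such as plant toxins, insecticides and the aldehydes left by lipid oxidation, so that the conjugates can be exported and cleared. Insects carry large delta and epsilon classes, many of whose members lie in gene clusters, beside the omega, sigma, theta and zeta classes that are shared with other animals. In Drosophila, several GstD genes are targets of the oxidant-responsive factor CncC, which the adaptor Keap1 holds in check.

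The family was followed in SL2 cells, a line from Drosophila embryos with features of blood cells, on Affymetrix Drosophila Genome 2.0 arrays. A member was any gene with a probe set that the platform annotation pairs with a single symbol of the form Gst, then D, E, O, S, T or Z, then a number. Where a gene had several probe sets, the one with the highest mean was used. This gave 34 genes of 11982 genes with such a probe set: 11 of class D (delta), 13 of class E (epsilon), 3 of class O (omega), 1 of class S (sigma), 4 of class T (theta) and 2 of class Z (zeta). GstE8 was not analysed here. All 34 symbols matched the RefSeq gene table, and 0 GST probe sets carried several symbols. In the order of protein-coding genes in that table, GstD10, GstD9 and GstD1 to GstD8 follow each other as a run of 10, and GstE10 and GstE1 to GstE9 as another run of 10. GstO3, se, GstO2 and GstO1 form a run of 4, GstT1 lies beside GstT2, and GstZ1 lies beside GstZ2.

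SL2 cells that had been given double-stranded RNA (dsRNA) against SPS1, a homologue of selenophosphate synthetase, were compared with untreated SL2 cells at days 1, 3 and 5, in a search for genes that SPS1 regulates directly or through others. There were 5 SPS1 dsRNA and 5 untreated samples at day 1, and 2 of each at day 3 and at day 5, all grown in the same serum-free insect medium. Each day 3 group had 1 further, technical array, which was averaged with biological replicate 2 of its group. Untreated cells were given no control dsRNA, and effects of dsRNA in general and of losing SPS1 cannot be told apart. No probe set carried the name of SPS1, and its own level is not shown. The source field of the day 5 SPS1 dsRNA samples reads as untreated, while their titles name the dsRNA, and the titles were used. The titles set biological apart from technical replicates but do not say what a biological replicate was, and p-values then measure only how far these samples spread, in part perhaps for technical reasons.

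Values are log2 intensities, and a difference of 1 is a 2-fold difference. Within a day, rose and fell mean higher and lower in SPS1 dsRNA than in untreated cells, not a change since an earlier day. A gene was called changed at an adjusted p under 0.05 in limma, with Benjamini-Hochberg adjustment over all 18769 probe sets tested. Same-numbered samples of a day varied together across probe sets, so a second fit with the replicate number as a block is given where it changed a call or moved a count by over 1.5 times. Array medians lay between 4.53 and 4.69, and 8 of the 34 members had a mean under 5, close to that level. Of the 190 pairs of arrays, the 4 with the largest root mean square differences (0.408 to 0.442 log2 units) all involved SPS1 dsRNA day 5 replicate 1. For the gene sgll, untreated day 1 replicate 4 was at 7.76, within the 7.64 to 8.14 of the SPS1 dsRNA day 1 samples. The other untreated day 1 samples were at 8.45 to 8.70. Without untreated day 1 replicate 4, 0 members were called at day 1, 1 at day 3 and 3 at day 5, as with it. The call of GstE11 in untreated cells and that of GstD7 between days 5 and 1 were lost. In bulk RNA such as this, fewer cells of a type and less RNA per cell cannot be told apart.

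**Figure D1:**
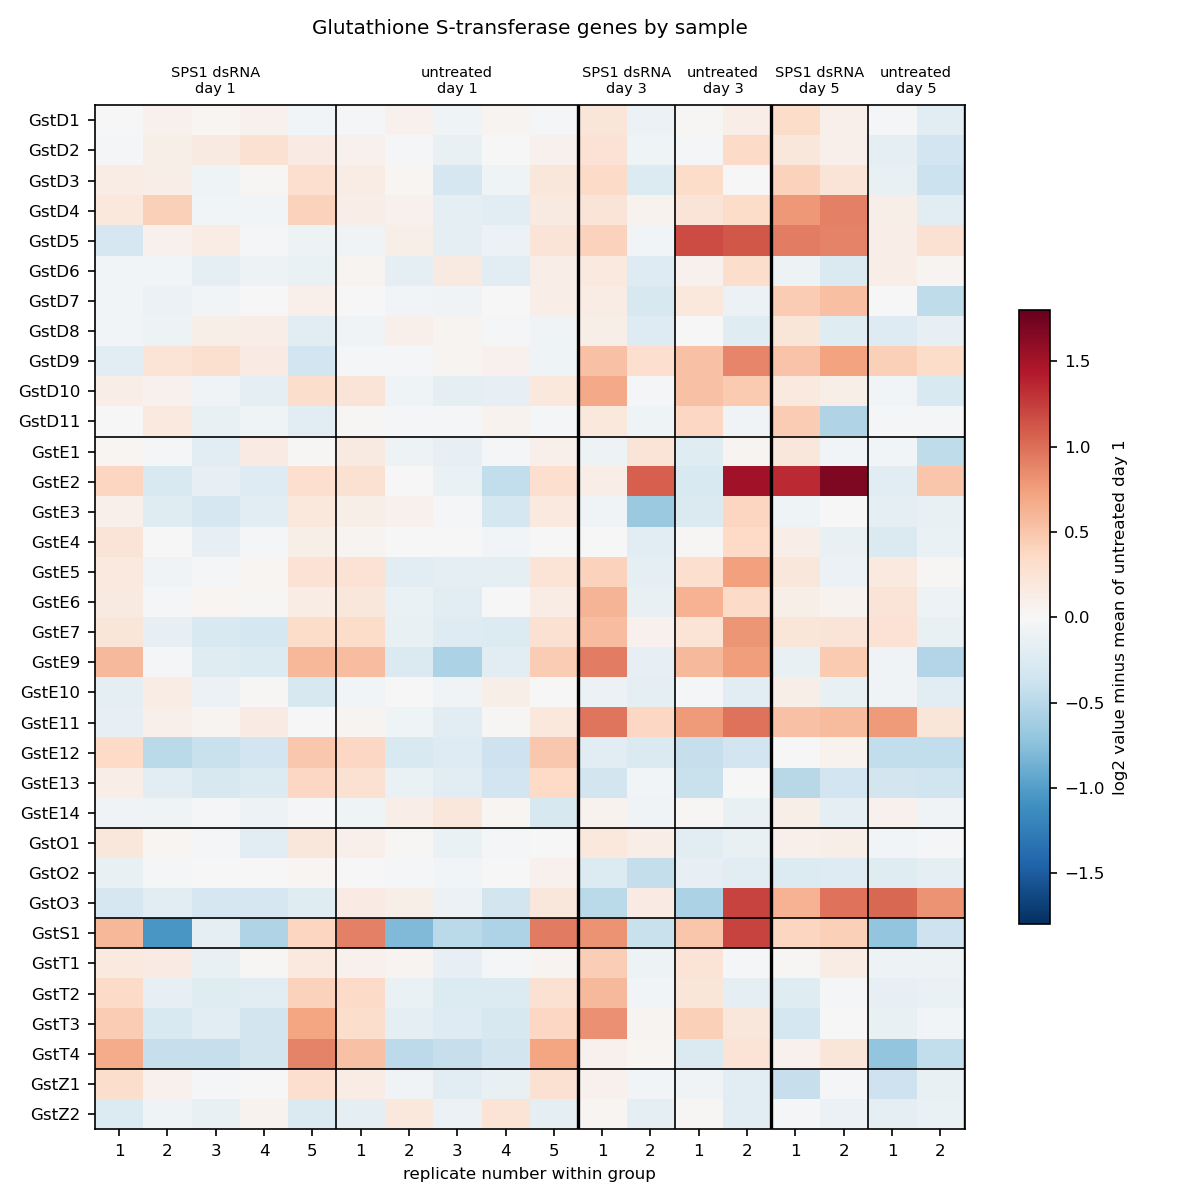
Log2 value of each of the 34 GST genes (rows, by class) in each of the 18 samples (columns, by group and replicate number), as the difference from the mean of the untreated day 1 samples of that gene. GstS1 and GstT4 are high in day 1 samples 1 and 5 with and without dsRNA, and GstD5 stands out in untreated day 3 and SPS1 dsRNA day 5 samples.

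At day 5, GstD4, GstD7 and GstD5, which lie in the delta cluster, were higher in SPS1 dsRNA than in untreated cells. No member was called lower. That is 3 of 34 members higher, where 1.19% of all probe sets were called higher, and 0 of 34 lower, where 1.59% were. The delta genes are close in sequence, and how far their probe sets detect each other was not tested. With the replicate block 9 of 34 were higher, against 5.07% of all probe sets, and 0 were lower, against 7.14%.

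GstD4 (probe set 1626253_at) stood at 5.24 and 5.37 in SPS1 dsRNA cells and at 4.56 and 4.25 in untreated cells. Its difference was 0.90 (SE 0.17, limma adjusted p = 0.006), or 1.87-fold, and both SPS1 dsRNA samples lay above both untreated ones. GstD4 is a weak member, with a mean of 4.64 over the 18 samples, within the 4.53 to 4.69 of the array medians. The means of GstD5 (5.42) and GstD7 (5.59) lay above those medians but were low for the class as well. GstD1 (12.10), GstD9 (10.51) and GstD3 (10.34), the brightest delta genes, were not called at day 5 without the block. GstD7 (probe set 1624793_at) stood at 6.03 and 6.11 in SPS1 dsRNA cells, against 5.56 and 5.12 in untreated cells. The groups did not overlap for GstD7 either, with a difference of 0.74 (SE 0.15, limma adjusted p = 0.0084). The calls of GstD4 and GstD7 were lost without untreated day 5 replicate 2, the lowest sample of both genes at that day, with adjusted p = 0.108 for GstD4 and 0.176 for GstD7.

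GstD5 (probe set 1634152_at) was at 6.08 and 6.05 in SPS1 dsRNA cells at day 5, against 5.28 and 5.43 in untreated cells. The 2 SPS1 dsRNA samples were nearly level and both above the untreated ones, by 0.70 on average (SE 0.16, limma adjusted p = 0.022). Leaving out any 1 of the 4 day 5 samples ended this call, with adjusted p up to 0.198 while the difference stayed between 0.63 and 0.78. In a fit on the day 5 samples alone, where the spread is not shared with day 1, none of the 34 members was called. That fit called 81 of all 18769 probe sets.

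Other members, some with larger differences, were called with the block alone. GstE2, an epsilon class gene, was at 6.68 and 7.02 in SPS1 dsRNA cells and at 5.13 and 5.84 in untreated cells. Its difference of 1.36 was the largest in the family at day 5 (SE 0.44, limma adjusted p = 0.15; adjusted p = 0.0003 with the replicate block). Both pairs moved the same way, by 1.55 in number 1 and 1.17 in number 2. Without untreated day 3 replicate 1 or replicate 2, a group that does not enter this difference except through the shared spread, GstE2 was called, at a lowest adjusted p of 0.032.

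GstT4, of the theta class, was at 10.10 and 10.24 in SPS1 dsRNA cells against 9.30 and 9.57 in untreated cells, a difference of 0.73 (limma adjusted p = 0.57; adjusted p = 0.0016 with the replicate block). GstD3 differed by 0.58 (adjusted p = 0.16; 0.0011 with the block) and GstE12 by 0.47 (adjusted p = 0.62; 0.0031 with the block). GstD1, best known for its activity against DDT and as a reporter of oxidative stress, was at 12.40 and 12.16 in SPS1 dsRNA cells and at 12.03 and 11.88 in untreated cells. Its difference of 0.33 passed with the block (adjusted p = 0.042) and not without it (adjusted p = 0.16). GstE1 showed a difference of 0.33 as well (limma adjusted p = 0.41, or 0.029 with the block). The GstT4 mean was 10.10 at day 1 and 10.17 at day 5 in SPS1 dsRNA samples, and 10.02 and 9.44 in untreated samples. For GstE12 these means were 10.61 and 10.72 with dsRNA, and 10.69 and 10.25 without. For GstE2 they were 5.34 and 6.85 with dsRNA, and 5.34 and 5.49 without. In GstD1, GstD3 and GstE1 the mean was higher at day 5 than at day 1 with dsRNA, and lower without.

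**Figure D2:**
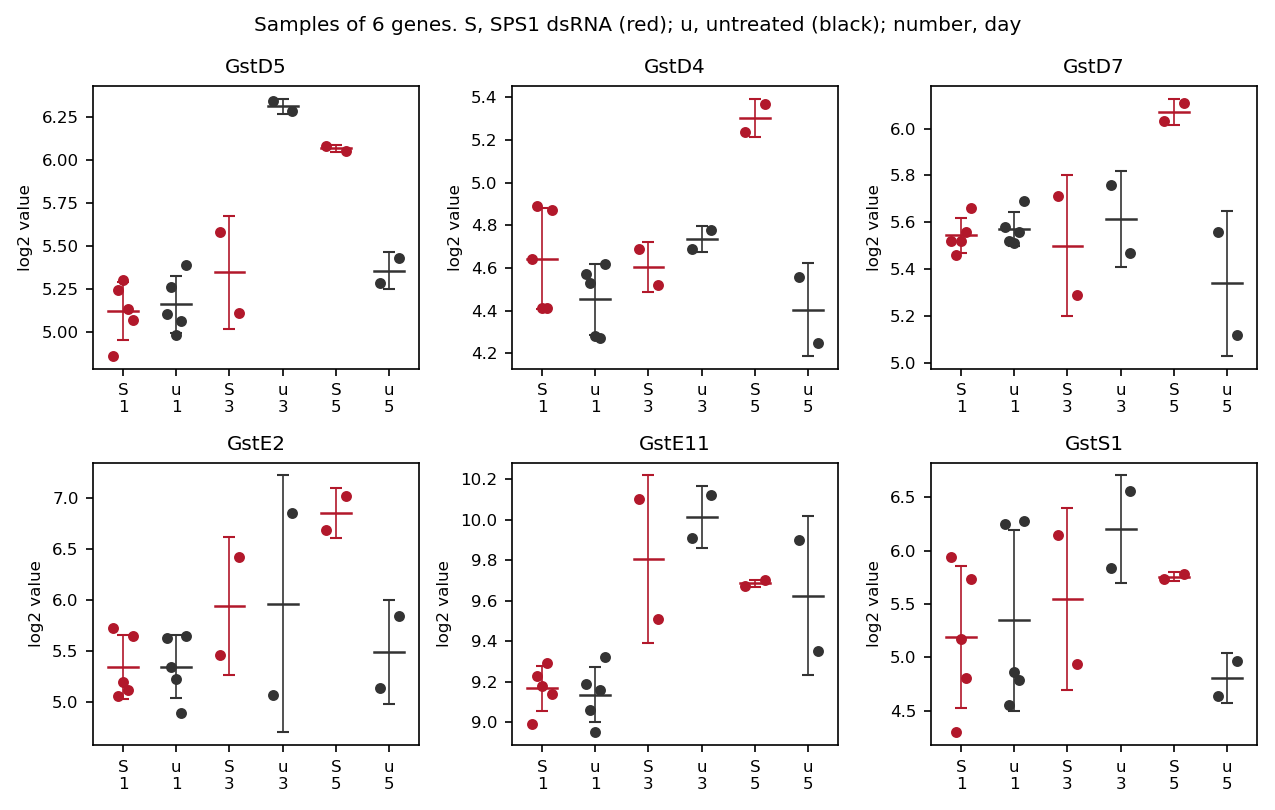
Log2 value (y axis) of GstD5, GstD4, GstD7, GstE2, GstE11 and GstS1 in each sample, with SPS1 dsRNA (S, red) left of untreated (u, black) at days 1, 3 and 5. GstD5 lies below untreated at day 3 and above it at day 5. GstD4 and GstD7 differ most at day 5, with smaller differences at days 1 and 3. The day 3 groups of GstD4 do not overlap either, with SPS1 dsRNA lower.

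GstS1, the sigma class enzyme that conjugates the lipid aldehyde 4-hydroxynonenal and is abundant in flight muscle, was at 5.73 and 5.78 in SPS1 dsRNA cells at day 5, against 4.64 and 4.97 in untreated cells. The groups did not overlap, but the difference of 0.95 did not pass in either fit (SE 0.59, limma adjusted p = 0.59; adjusted p = 0.085 with the block). Its day 1 samples alone spanned 4.30 to 6.28. The probe set of GstS1 is of a kind that may detect more than 1 transcript.

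Of the 34 members, 26 had a difference above 0 at day 5 and 8 below it, with a median of 0.17 beside 0.01 over all probe sets. Class D had 9 above and 2 below with a median of 0.33, and class E had 10 above and 3 below with a median of 0.11. In class T 3 were above and 1 below, both zeta genes were above, and in class O 1 was above and 2 were below. The split depended on the scaling of the arrays: 22 of 34 were above 0 with each array centred on its median, and 29 with cyclic loess, while 9 of the 11 class D genes were above 0 under all 3 scalings.

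All SPS1 dsRNA samples lay above all untreated samples at day 5 in 16 of 34 members, or 47.1%, where 17.8% of all probe sets did so. These were 8 of the 11 class D genes (GstD1, GstD2, GstD3, GstD4, GstD5, GstD7, GstD9 and GstD10), GstE2, GstE3, GstE12, GstO1, GstS1, GstT1, GstT4 and GstZ2. In the opposite direction it was 2 of 34, GstD6 and GstO2, against 17.5% of all probe sets. GstD6 was at 3.74 and 3.57 in SPS1 dsRNA cells and at 3.94 and 3.87 in untreated cells, a level below the array medians, and its difference of -0.25 did not pass (adjusted p = 0.53). In both numbered pairs 18 members were higher, where 32.7% of all probe sets were, and GstD6 and GstO2 were lower, where 29.4% were.

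The members with the highest means in classes E, O, T and Z had small differences at day 5. GstE6 differed by 0.01, GstO2 by -0.05, GstT1 by 0.17 and GstZ1, whose human counterpart isomerises maleylacetoacetate in tyrosine breakdown, by 0.03 (lowest adjusted p = 0.76, GstT1). The lowest differences of their classes were GstE13 at -0.08, GstO3 at -0.12 and GstT3 at -0.07. The highest of the omega class was GstO1 at 0.14, and of the zeta class GstZ2 at 0.09. None of these passed in either fit. Where a gene had a second probe set, for GstE9 and GstO2, it did not pass either at days 1, 3 or 5.

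**Figure D3:**
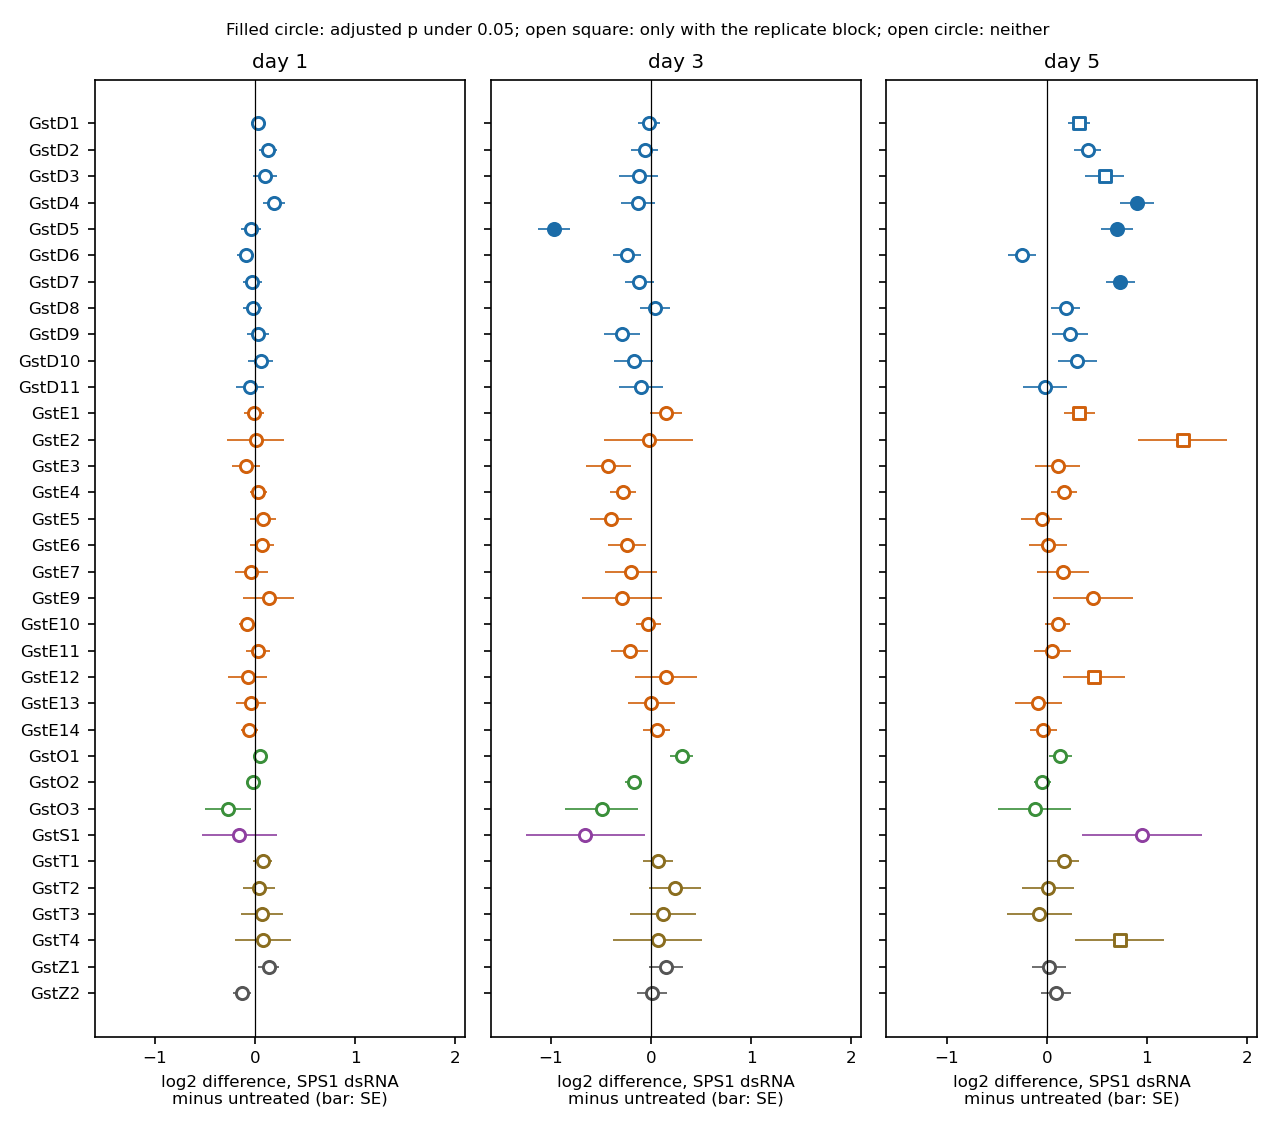
Log2 difference of SPS1 dsRNA minus untreated (x axis, bar: SE) for each of the 34 members (rows) at days 1, 3 and 5. Filled circles mark calls without the block: 1 at day 3 (GstD5, to the left of 0) and 3 at day 5 (GstD4, GstD5 and GstD7, to the right of 0); open squares mark calls made with the replicate block alone.

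At day 3 the only member called was GstD5, which was lower in SPS1 dsRNA than in untreated cells. Its mean was 5.12 at day 1 and 5.35 at day 3 with SPS1 dsRNA, and 5.16 and 6.31 in untreated samples. Of 34 members 1 was lower, where 0.149% of all probe sets were called lower, and 0 were higher, where 0.0266% were. With the block the counts were again 1 lower, where 0.884% of all probe sets were, and 0 higher, where 0.362% were. GstD5 was at 5.58 and 5.11 in SPS1 dsRNA cells, against 6.34 and 6.28 in untreated cells. Both SPS1 dsRNA samples lay below both untreated ones, by 0.97 on average (SE 0.16, limma adjusted p = 0.019), or 1.95-fold lower. The arrays averaged into number 2 showed the same order, with 5.08 (biological) and 5.15 (technical) in SPS1 dsRNA cells and 6.46 (biological) and 6.10 (technical) in untreated cells. The call was lost without untreated day 3 replicate 1, untreated day 3 replicate 2 or SPS1 dsRNA day 3 replicate 2, with adjusted p up to 0.242 and differences from -1.20 to -0.73.

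The other members at day 3 differed between the pairs. Over the group means 12 of 34 were above 0 and 22 below it, with a median of -0.11 beside 0.00 over all probe sets, 10 of the 11 class D genes and 9 of the 13 class E genes below 0, and all 4 theta and both zeta genes above it. With the technical arrays averaged with replicate 1 in place of replicate 2, 8 were above 0 and 26 below, with a median of -0.19, and 1 of the 4 theta genes was above 0. In pair number 1, however, 25 members were above 0 and 9 below, with a median of 0.13. In pair number 2, 8 were above 0 and 26 below, with a median of -0.25, while all probe sets divided evenly (50.4% above and 49.4% below). The biological arrays of number 2 alone gave 9 above and 25 below, and the technical arrays alone 7 above and 27 below. GstS1 shows the contrast: it differed by 0.30 in pair number 1 and by -1.61 in pair number 2. So did GstE9, which was at 10.76 (number 1) and 9.69 (number 2) in SPS1 dsRNA cells, and at 10.43 (number 1) and 10.60 (number 2) in untreated cells.

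Groups that did not overlap at day 3 were about as frequent in the family as among all probe sets. They comprised 3 members above (GstE12, GstO1 and GstZ1, 8.82% of members against 12.1% of all probe sets) and 5 below (GstD4, GstD5, GstD9, GstE4 and GstO2, 14.7% against 12.2%). At day 5 most members lay above 0 in each pair. There were 23 in number 1 (median 0.15), where 53.6% of all probe sets were above 0, and 27 in number 2 (median 0.19), where 49.6% were. Gene by gene, 18 members were higher in both pairs (32.7% of all probe sets) and 2 lower in both (29.4%). The other members changed sign between the pairs.

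**Figure D4:**
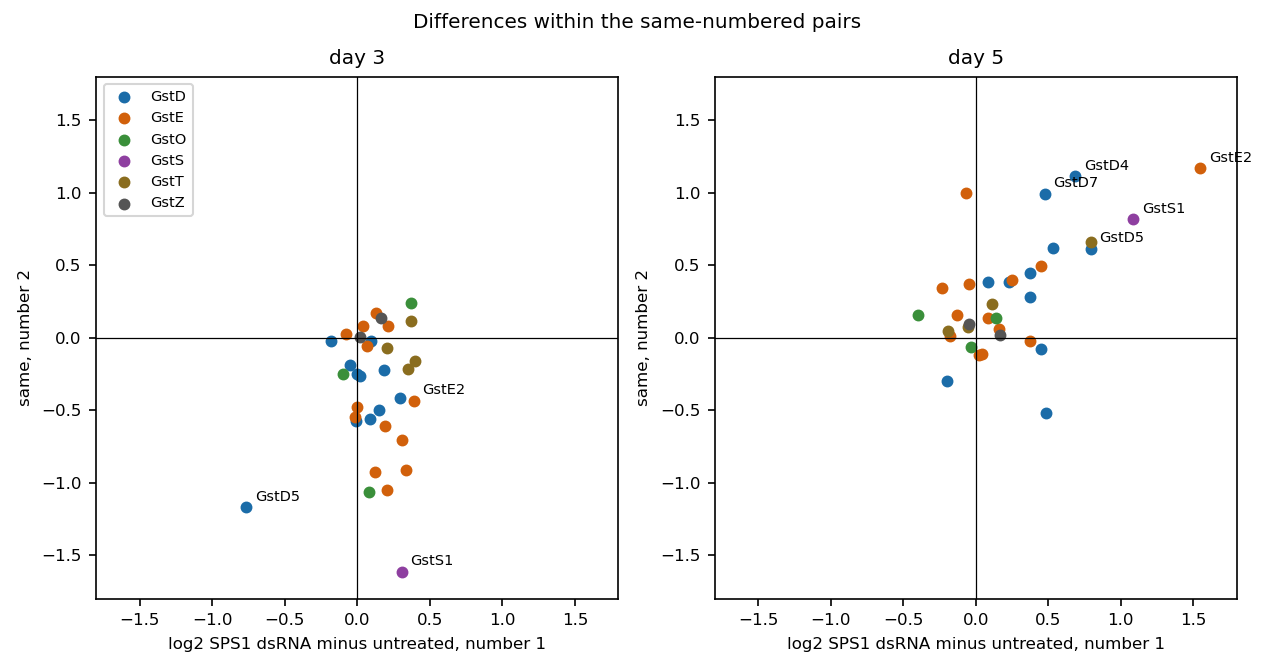
Log2 difference of SPS1 dsRNA minus untreated in pair number 1 (x axis) and pair number 2 (y axis) at day 3 and day 5, 1 point per GST gene, coloured by class. At day 3 most points lie right of 0 and below 0 (medians 0.13 and -0.25), and at day 5 most lie above 0 in both pairs (medians 0.15 and 0.19).

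At day 1 no member was called. Differences ran from -0.27 (GstO3) to 0.19 (GstD4), with a median of 0.02. The limma fit called 0 of 34, as it called 0% of all probe sets, and 0 members had an unadjusted p under 0.05, where 1.55% of all probe sets did. With the block the counts were again 0 called, and 3 members had an unadjusted p under 0.05, where 5.33% of all probe sets did. No member had all 5 SPS1 dsRNA samples above, or all below, the 5 untreated samples (0.128% of all probe sets above, 0.234% below). GstD4, GstT1, GstT4 and GstZ1 were higher in each of the 5 same-numbered pairs, 11.8% of members where 3.49% of all probe sets were, and GstZ2 was lower in each, where 3.73% were.

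Day 1 levels of several members differed between replicate numbers in the same way with and without dsRNA. GstT4 was at 10.68, 9.60, 9.60, 9.69 and 10.91 in SPS1 dsRNA samples 1 to 5, and at 10.54, 9.54, 9.60, 9.69 and 10.72 in untreated samples 1 to 5. Its values in samples 1 and 5 were higher than in the other 3 in both groups. The SD over the 5 pair means was 0.61, and the SD of the 5 differences within pairs was 0.08. For GstS1 these SDs were 0.74 (pair means) and 0.33 (differences), for GstE9 0.45 and 0.16, and for GstE12 0.43 and 0.11. Pair means varied more than differences within pairs in 18 of 34 members, or 52.9%, and in 36.4% of all probe sets. These SDs are not on the same scale: where samples vary independently, pair means spread less than differences within pairs. GstD1 was among the level ones, with an SD over pair means of 0.05. What a replicate number stands for is not given in the labels.

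The change of GstD5 at day 5 differed from its change at day 3. The difference between these changes was 1.67 (SE 0.23, limma adjusted p = 0.0071), and 1 of 34 members passed, where 0.0959% of all probe sets did. Without untreated day 5 replicate 1 it had an adjusted p of 0.065. With the replicate block 5 members passed, GstD3, GstD4, GstD5, GstD7 and GstE2, where 1.2% of all probe sets did. Between day 5 and day 1 the change of GstD7 differed by 0.76 (SE 0.17, limma adjusted p = 0.036), the only 1 of 34 members to pass, where 1.4% of all probe sets did. That call was lost in 11 of 18 fits with 1 sample left out. With the block 7 members passed, where 6.82% of all probe sets did: the same 5, with GstE12 and GstT4. Between day 3 and day 1, 0 members passed (0.0213% of all probe sets), with 1 member at an unadjusted p under 0.05 (2.34% of all probe sets). With the block that member, GstD5, passed at -0.93 (adjusted p = 0.046), where 0.336% of all probe sets did. These comparisons, and those of untreated cells below, share samples with the comparisons within days.

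Untreated samples differed between days as well. Each day had its own samples, and the labels do not link them across days. Time in culture therefore cannot be told apart from differences between sets of samples or arrays. GstD5 had the largest difference of the family between days 3 and 1. It was at 6.34 and 6.28 at day 3, and at 5.10, 5.26, 4.98, 5.06 and 5.39 at day 1. Every day 3 sample lay above every day 1 sample, by 1.15 on average (SE 0.13, limma adjusted p = 0.0014), or 2.22-fold, and the call held with each of the 18 samples left out in turn. GstE11 (probe set 1624800_at) was higher at day 3 too, at 9.91 and 10.12, against 8.95 to 9.32 with a median of 9.16 over the 5 day 1 samples. Its difference was 0.88 (SE 0.15, limma adjusted p = 0.038), and the call was lost in 11 of 18 fits with 1 sample left out. Together they made 2 of 34 members higher, where 0.0799% of all probe sets were, and 0 lower.

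Across the family, the difference of untreated day 3 minus untreated day 1 was above 0 in 23 members and below 0 in 11, with a median of 0.15. All day 3 samples lay above all day 1 samples in 8 members (GstD4, GstD5, GstD9, GstD10, GstE5, GstE6, GstE9 and GstE11), or 23.5% against 4.86% of all probe sets. They lay below in 2, GstO1 and GstO2, or 5.88% against 5.74%.

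By day 5 the untreated levels were lower than at day 3 in most members, though none was called. The limma fit called 0 of 34 (0% of all probe sets), with 8 members at an unadjusted p under 0.05, all 8 lower, where 5.99% of all probe sets had such a p in either direction. Of 34 members 31 were below 0, including all 11 of class D, with a median of -0.25 beside -0.02 over all probe sets. All day 5 samples lay below all day 3 samples in 17 members, or 50%, where 18.6% of all probe sets did, and above in GstO1 alone, where 14.7% did. GstD5, at 5.28 and 5.43 at day 5 against 6.34 and 6.28 at day 3, differed by -0.96 (adjusted p = 0.062). GstD10 was at 5.20 and 4.98 at day 5, against 5.78 and 5.73 at day 3.

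Set against day 1, the untreated day 5 samples had 0 members called by limma (0.186% of all probe sets), with 5 at an unadjusted p under 0.05, 3 higher and 2 lower, where 10.8% of all probe sets had such a p. There were 10 members above 0 and 24 below, with a median of -0.13 beside -0.02 over all probe sets. With each array centred on its median 13 were above 0 and 21 below, with a median of -0.07 beside 0.03. All day 5 samples were above all day 1 samples in GstD9, GstE11 and GstO3 (8.82% of members, 8.07% of all probe sets). They were below in GstD2, GstD8, GstE4, GstE12 and GstO2 (14.7% of members, 10.4% of all probe sets). GstD5 at day 5 (5.28 and 5.43) overlapped its day 1 range.

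In the SPS1 dsRNA cells GstD5 followed another order of levels. Its mean was 5.12 at day 1, 5.35 at day 3 and 6.06 at day 5, where untreated cells had means of 5.16, 6.31 and 5.36 at the same days. The highest GstD5 level thus lay at day 5 with SPS1 dsRNA and at day 3 without it.

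**Figure D5:**
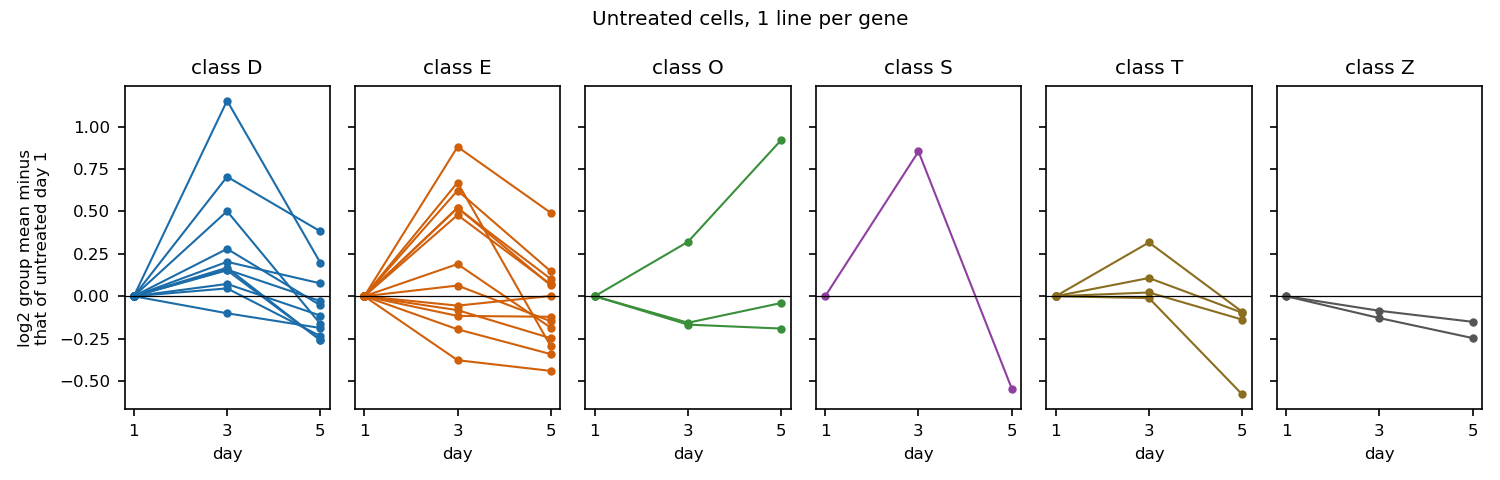
Log2 group mean of untreated cells at days 1, 3 and 5 (x axis), minus that at day 1 (y axis), with 1 line per GST gene and 1 panel per class. In class D, 10 of 11 lines lie above 0 at day 3 and all 11 are lower at day 5 than at day 3.

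Other genes of glutathione use and detoxification were taken from lists chosen for this comparison. Of 12 measured genes of glutathione synthesis, use and recycling, 2 fell at day 5 and 0 rose, with a list median of -0.11, where 1.59% of all probe sets were lower and 1.19% higher. Cbs, cystathionine beta-synthase, which routes homocysteine toward cysteine, differed by -1.77 (limma adjusted p = 0.00036). Gclm, the modifier subunit of the enzyme that starts glutathione synthesis, differed by -0.39 (adjusted p = 0.031), a call lost in 3 fits with 1 sample left out. Gclc, its catalytic subunit, differed by -0.13 and Trxr1, the thioredoxin reductase that recycles glutathione in flies, by -0.11 (adjusted p = 0.72 for Gclc and 0.79 for Trxr1). With the block 1 of the 12 was higher and 3 were lower at day 5, against 5.07% higher and 7.14% lower over all probe sets. At days 1 and 3 the fit without the block called none of the 12, and with it Cbs was lower at day 3 (-1.08).

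Of 10 measured genes of the CncC and Keap1 axis, which holds known targets as well as the regulators, Cat (catalase) rose at day 5 by 1.35 (limma adjusted p = 0.0012), and Gclm, in this list too, fell. With the block Cat and Men, a malic enzyme, were higher and Gclm was lower at day 5, and Cat was higher at day 3 (0.57). That is 1 of 10 higher and 1 lower at day 5 without the block, against 1.19% and 1.59% of all probe sets, and 2 higher and 1 lower with it, against 5.07% and 7.14%. The regulators cnc (-0.16) and Keap1 (0.16) did not pass (adjusted p = 0.83 for cnc and 0.82 for Keap1), nor did they with the block. The list median was -0.04.

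Among 33 measured cytochrome P450 genes of detoxification, 4 rose at day 5 and 0 fell, with a list median of 0.22. Over all probe sets 1.19% were higher and 1.59% lower at that day. They were Cyp6a8 (1.55, adjusted p = 0.0029), Cyp12d1-d (1.15, adjusted p = 0.0057), Cyp6a14 (0.99, adjusted p = 0.0012) and Cyp4e2 (0.85, adjusted p = 0.039). The calls of Cyp12d1-d and Cyp4e2 were lost in 3 and 10 fits with 1 sample left out. With the block 12 of the 33 were higher and 0 lower at day 5, where 5.07% of all probe sets were higher and 7.14% lower. None of the 33 passed without the block at days 1 and 3, and with it Cyp6d4 was lower at day 3 (-0.66).

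Of 6 measured proteins with a GST-like fold or of the membrane-bound family, Gdap1 fell at day 3 (-0.77, adjusted p = 0.017) and at day 5 (-0.65, adjusted p = 0.0061), and lost these calls in 3 and 2 of the fits with 1 sample left out. That is 1 of 6 lower at each of these days, where 0.149% of all probe sets were lower at day 3 and 1.59% at day 5. The block added Mgstl, the microsomal transferase (0.46), and Clic (0.41) at day 5, where 5.07% of all probe sets were higher with it. The pigment gene se, which lies among the omega genes, differed by 0.10 at day 5 (adjusted p = 0.79). Of 11 measured ABC transporters, which include exporters of glutathione conjugates, 0 passed at day 5, where 1.19% of all probe sets were higher and 1.59% lower. With the block 1, MRP (0.39), was higher, where 5.07% of all probe sets were.

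Of 10 plasmatocyte markers 2 rose at day 5, eater (3.28, adjusted p = 0.00018) and Pxn (2.35, adjusted p = 0.00015), and 4 with the block. None fell, and the list median was 0.34. Of all probe sets 1.19% were higher and 1.59% lower at day 5, and with the block 5.07% and 7.14%. The mean log2 level over the 10 was 6.13 and 6.46 in the SPS1 dsRNA day 5 samples and 5.53 in both untreated day 5 samples. The mean of 5 lamellocyte markers was 7.08 and 7.18 in the SPS1 dsRNA samples, against 7.43 and 7.48 in untreated samples, with 0 called. With the block 1 of the 5, PPO3, was lower at day 5 (-0.99) and at day 3 (-0.59). Of 4 crystal cell, 4 neuron, 2 muscle, 4 fat body and 4 gut markers, 0 were called at day 5, and with the block 1, the fat body gene apolpp, was higher (0.37; adjusted p = 0.053, or 0.010 with the block). Levels of the muscle markers were 3.36 and 3.39 in SPS1 dsRNA samples and 3.32 and 3.41 in untreated samples, below the array medians. The part of these markers in the GST differences was not tested.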

How the data were processed

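The authors deposited log2 intensities summarised with RMA, per the submitters' processing notes, as 1 table of 18952 probe sets on 20 arrays. Neither the RMA version nor its probe annotation is stated by the sources used here. Deposited log2 values ran from 2.475 to 14.359 and were used as they are. RMA compresses changes of weak probe sets toward 0, and precision is limited by how many arrays there are.

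Without the 183 control probe sets the fit covered 18769, of which 13647 had 1 gene symbol in the platform annotation, 402 several and 4720 none. Symbols and gene neighbours came from RefSeq (Release 6 plus ISO1 MT).

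Each technical array was averaged with replicate 2 of its group, to which it lay closer (root mean square difference 0.195 with SPS1 dsRNA, 0.226 untreated) than to replicate 1 (0.314 and 0.305). The 6 groups (18 samples) entered 1 fit in limma 3.58.1 under R 4.3.3, with 12 residual and 4.26 prior degrees of freedom, so that tests at days 3 and 5 borrow much of their spread from day 1. Benjamini-Hochberg adjustment ran over all probe sets tested. The fit was tested on simulated data with 200 changed genes. Tables were made with pandas 2.3.3 under Python 3.11.15.

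SPS1 dsRNA and untreated samples of a day share replicate numbers. As deviations from their group means, samples of the same number correlated at r = 0.69 to 0.84 in the 5 pairs of day 1, each highest with its own number, at 0.78 at day 3 and at 0.71 at day 5. The pairing therefore comes from the data, and the fit with the block had 6 residual degrees of freedom.

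The members and the gene lists were chosen with earlier results of these data known. Genes named with values were those called in any comparison or with the block, the brightest of each class, and the largest positive and negative difference of each class at day 5. A few others were named after their values were seen: members whose groups did not overlap or that kept 1 direction in every pair, GstE9, GstD10, GstO3 at day 1, and from the lists Gclc, Trxr1, cnc, Keap1, se and, called with the block alone, Men, Mgstl, Clic, MRP, Cyp6d4, apolpp and PPO3; sgll too. No sequences or coordinates are printed. Other scalings, blocks, treatments of the technical arrays, filters and samples were tried as alternatives.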

Additional observations from a re-analysis of the deposited data

Results flagged for a closer look

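The changes of 2 members differed between days by the test of the difference itself. The SPS1 dsRNA change of GstD5 at day 5 exceeded that at day 3 by 1.67 (SE 0.23, limma adjusted p = 0.0071), with the day 3 change below 0 (-0.97) and the day 5 change above it (0.70). Both pairs had this direction, with differences of 0.79 (number 1) and 0.61 (number 2) at day 5, against -0.77 (number 1) and -1.17 (number 2) at day 3. The change of GstD7 at day 5 exceeded that at day 1 by 0.76 (SE 0.17, limma adjusted p = 0.036), with differences at day 5 of 0.48 (number 1) and 0.99 (number 2). Only day 1 has groups large enough to check for an outlying sample, and there 0 of 68 groups of 5 samples, 2 for each member, held one.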

How the results depend on the processing

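Counts are of the 34 members called, and those not given stayed within 1.5 times the value in the report. With the replicate block 9 were called at day 5, 1 in the difference between days 3 and 1, 7 between days 5 and 1 and 5 between days 5 and 3; it changed no call at days 1 and 3. The block cannot be fitted to untreated cells across days. With it as a random term the counts were 7, 1, 4 and 3 for those comparisons, and 1 for untreated day 3 over day 1. Of the 18769 probe sets that fit called 1980, 36, 1084 and 167 for those comparisons, and 19 for untreated day 3 over day 1. A fit on only the days compared called 0 at day 3, 0 at day 5, 2 in days 5 over 1, 0 in days 5 over 3, and 1 in untreated day 5 over day 1 (GstO3). Among all probe sets it called 0, 81, 342, 0 and 126 in that order. With the technical arrays averaged with replicate 1, counts were 5 at day 5, 1 in days 3 over 1, 2 in days 5 over 1, and 5, 1 and 1 in untreated day 3 over 1, day 5 over 1 and day 5 over 3. Calls among all probe sets rose too. In the same order they were 700, 11, 376, 274, 98 and 46, where the main fit had 523, 4, 263, 20, 35 and 0. With the technical arrays as samples of their own, counts were 1 in days 3 over 1, 0 in days 5 over 1, 2 in days 5 over 3 and 1 in untreated day 5 over 3. All probe sets then had 15, 278, 59 and 17 calls in these comparisons. GstD7 in days 5 over 1 was the 1 call lost with median centring, with technical arrays left out and with a trend on mean level (count 0 in each). Cyclic loess called 1 in untreated day 3 over 1, and leaving out probe sets with a mean under 5 called 1 in untreated day 5 over 3 (GstD5, -0.96). That filter removed the 8 members with a mean under 5, GstD4 among them. Of the 8201 probe sets it kept, 11 were called in untreated day 5 over 3.

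With 1 sample left out in turn, counts ran from 0 to 1 at day 3, 0 to 4 at day 5, 0 to 1 in days 3 over 1, 0 to 2 in days 5 over 1, 0 to 1 in days 5 over 3, 1 to 3 in untreated day 3 over 1, 0 to 1 in untreated day 5 over 1 and 0 to 1 in untreated day 5 over 3. Day 1 stayed at 0. The count of 0 at day 5 came without untreated day 5 replicate 2, and without untreated day 3 replicate 1 the 1 call at day 3 was GstO3 in place of GstD5.

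Uncalled day 5 differences near 0 changed sign. Median centring gave GstE11 -0.01, GstE6 -0.05 and GstZ1 -0.04. Cyclic loess gave GstE13 0.01, GstO2 0.02 and GstT3 0.02. With 1 sample left out GstE11 ran from -0.22 to 0.33, GstE6 from -0.15 to 0.17, GstO3 from -0.29 to 0.05, GstT3 from -0.23 to 0.08 and GstZ1 from -0.16 to 0.21. The causes were not tested. Signal near the array medians limits what could be seen in the 8 weak members.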
